A study of Mus musculus with 5 samples.

Results

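The TGF-beta ligand genes Tgfb1, Tgfb2 and Tgfb3, the receptor genes Tgfbr1, Tgfbr2 and Tgfbr3 and the pathway's Smad genes Smad2, Smad3 and Smad7 were followed in MLE-15 cells after lentiviral delivery of an shRNA against Grhl2. The Grhl2 protein is a Grainyhead-family transcription factor found in epithelia. The genes were chosen by symbol: a probe set was used where the platform annotation pairs it with 1 of these symbols and no other. That rule found all 9 genes, with 1 probe set each, among 19937 genes that have such a probe set. The 3 Grhl2 shRNA arrays were set against 2 non-silencing control arrays, and the labels describe each array as its own transduction. Both groups share the cell line and the GFP-marked lentiviral vector. They also share 16 h of infection at a multiplicity of infection of 50, polybrene at 5 µg/ml and 6 days of puromycin selection at 5 µg/ml. The controls differ in carrying a hairpin without a target. The labels name a single hairpin against Grhl2, and the line itself is tumour-derived, from mice whose lung epithelium expressed SV40 large T antigen from a surfactant protein C promoter. The comparison addresses which genes differ in MLE-15 cells that carry this hairpin. With a single hairpin, effects through Grhl2 and off-target effects cannot be told apart.

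TGF-beta ligands are secreted in a latent complex with their own propeptide and are released from it by proteases, matrix proteins or integrins. The active ligand joins the kinase receptors Tgfbr2 and Tgfbr1, and Tgfbr1 phosphorylates Smad2 and Smad3, which enter the nucleus with Smad4 to act on target genes. Tgfbr3, also called betaglycan, is a co-receptor without a kinase that presents ligand, above all TGF-beta 2, to Tgfbr2, and its shed ectodomain binds and holds ligand. Smad7 is an inhibitory Smad that is itself a target of the pathway and closes a feedback loop. In lung epithelium the pathway is known for growth arrest, matrix production and the shift from epithelial to mesenchymal character, and in other epithelia Grhl2 is known to oppose that shift.

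The 250 bases before the RefSeq start (GRCm38.p6) are shown for Tgfb2, the ligand gene with the largest difference, and for Tgfb1, the ligand gene that did not pass the test. The Tgfb2 window is chr1:186705990-186706239 on the minus strand, and the Tgfb1 window is chr7:25686752-25687001 on the plus strand. Capitals mark matches on either strand to CAGAC (the Smad half-site), CACGTG (the E-box), TATAAA (the TATA box) or GGGCGG (the GC box).
Tgfb2: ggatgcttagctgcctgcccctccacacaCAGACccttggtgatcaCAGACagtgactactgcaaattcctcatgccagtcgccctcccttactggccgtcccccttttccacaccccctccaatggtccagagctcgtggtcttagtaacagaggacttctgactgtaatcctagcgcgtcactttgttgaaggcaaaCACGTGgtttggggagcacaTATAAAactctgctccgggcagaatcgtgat
Tgfb1: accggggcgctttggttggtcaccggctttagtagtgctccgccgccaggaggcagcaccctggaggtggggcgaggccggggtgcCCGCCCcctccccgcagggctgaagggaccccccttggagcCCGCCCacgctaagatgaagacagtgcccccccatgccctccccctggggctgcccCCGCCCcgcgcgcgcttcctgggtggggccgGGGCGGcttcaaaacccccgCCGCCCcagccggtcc
The Tgfb2 window held 2 Smad half-sites, 221 and 204 bases before the start, an E-box at 51 and a TATA box at 31, and no GC box. The Tgfb1 window held 5 GC boxes and none of the other letters searched, and its GC content was 75.2%, against 53.6% for Tgfb2. The Grainyhead consensus AACCGGTT, and the wider AACNGGTT that contains it, had no match in either window, nor in the windows of Tgfbr1, Tgfbr2 and Smad3. These 5 genes were the members with a RefSeq promoter that was matched here, in 6 windows. Over all 32851 promoter windows, 0.116% held AACCGGTT, 1.79% held AACNGGTT, 42.2% held CAGAC, 6.02% held CACGTG, 12.4% held TATAAA and 32.7% held GGGCGG. A match or its absence describes these letters in this window and says nothing of binding.

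Median log2 signal was 5.29 to 5.32 on all 5 arrays, and arrays correlated across genes at r = 0.9984 to 0.9987 within groups and 0.9967 to 0.9971 between them. Signals are log2 values after the authors' RMA, so a level can be compared between arrays for 1 probe set but not between probe sets. Grhl2 (probe set 10423770) had 7.43, 7.43 and 7.60 with the hairpin against it, and 7.77 and 7.68 in controls. The signal in shRNA cells was 85.0% of that in controls, and the adjusted p of 0.082 by limma missed the threshold of 0.05. It passed under 3 of 15 alternatives: with a stricter filter, the 50th percentile (adjusted p = 0.032), with a trended robust prior (0.023) and without shRNA replicate 3 (0.047). Of 14979 genes tested, 956 passed, which is 6.38%, with 429 higher (2.86%) and 527 lower (3.52%). Of 15 lung epithelial markers, 13 were above the low-signal filter, and the type II cell genes Lamp3 and Slc34a2 were below it. Sftpb had a mean of 12.14 and Nkx2-1 of 10.00 on the shRNA arrays, against 12.10 and 10.00 on the controls. Sftpc had means of 6.73 and 6.98, but its groups overlapped and it did not pass (limma adjusted p = 0.63). Its values were 6.15, 6.97 and 7.07 in shRNA cells and 7.17 and 6.80 in controls. Cldn18 lay near the filter, at 4.48 and 4.50. Of the 13, 10 had a log2 fold change below 0 (median -0.024) and 1 passed: Sftpd, the surfactant collectin, fell by 0.33 (limma adjusted p = 0.021), with 7.40, 7.50 and 7.55 in shRNA cells, against 7.80 and 7.84 in controls. Whether the Sftpd call holds under the alternatives was not recorded. The summed signal of the 15 markers was 14.32 to 14.39 in shRNA cells and 14.39 to 14.40 in controls (log2 of the sum). A sum of linear signals is set mainly by the brightest probe sets, here Sftpb, Krt18 and Krt8 (12.14, 12.13 and 11.94 on the shRNA arrays). Sftpd and Sftpc weigh little in it. For 11 fibroblast and smooth muscle markers the sum was 8.31 to 8.35 in shRNA cells and 8.35 to 8.37 in controls. Lum and Dpt were below the filter, and 0 of the 9 tested passed the threshold. For 11 endothelial and immune markers the sums were 8.06 to 8.14 in shRNA cells and 8.10 to 8.13 in controls. Of these markers 5 were below the filter, among them Ptprc and Kdr, and 0 of 6 tested passed the threshold. A signal above the filter does not show that a cell type is present. Cd68 at 6.11 and Cd3e at 5.16 on the shRNA arrays also lay above it.

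All 9 genes lay above the filter, and 3 passed the test: the ligand genes Tgfb2 and Tgfb3 were lower and the co-receptor gene Tgfbr3 was higher in Grhl2 shRNA cells. That is 1 gene higher and 2 lower of 9, against the 6.38% called in either direction among all genes. The 9 genes were chosen with earlier results of these data known, so their share is not an independent comparison. The kinase receptors and the Smads did not pass. The median log2 fold change of the 9 genes was -0.0018, against 0.0020 over all genes, and the median absolute value was 0.095 against 0.066. The groups did not overlap in 7 of the 9, where 41.5% of all genes had groups that did not overlap. Of the 9, 4 had an unadjusted p under 0.05, against 23.1% of all genes. In a bulk sample, fewer cells that express a gene and less RNA per cell cannot be told apart.

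**Figure D1:**
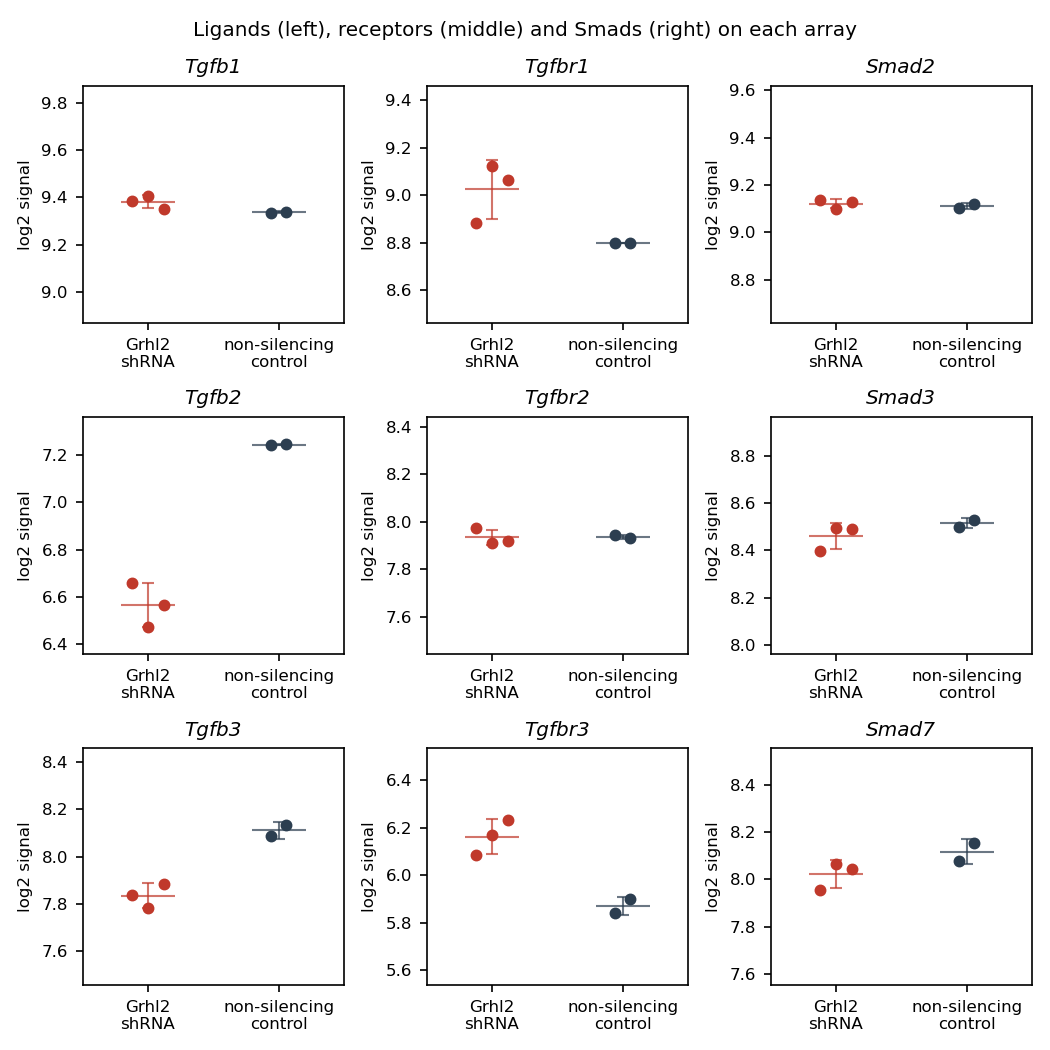
Log2 RMA signal (y axis, each panel 1 unit tall but with its own range) of each gene on each array, with points for the 3 Grhl2 shRNA arrays on the left and the 2 non-silencing control arrays on the right, and horizontal lines and bars for the mean ± SD. Tgfb2 and Tgfb3 lie lower and Tgfbr3 higher in all 3 shRNA cultures than in both controls, while Tgfbr2 and Smad2 overlap.

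Among the ligands, Tgfb2 showed the largest difference of the 9 genes. Its probe set (10360920) had 6.66, 6.48 and 6.57 on the shRNA arrays, against 7.24 and 7.24 on the control arrays. Every shRNA value lay at least 0.58 below the controls, which were nearly identical to each other. The means were 6.57 ± 0.091 in shRNA cells (SD, n = 3) and 7.24 ± 0.0023 in controls (SD, n = 2). Tgfb2 fell by 0.68 on the log2 scale (SE 0.059, limma adjusted p = 0.0048). Its signal in shRNA cells was 62.6% of that in controls (95% confidence interval 56.8 to 69.0%). Of 14979 genes, 23 had a lower log2 fold change. The encoded ligand, TGF-beta 2, is the one that depends most on betaglycan for binding to Tgfbr2. The call held whichever array was left out, with log2 fold changes of -0.72 to -0.63 and adjusted p-values of 0.012 to 0.044. It missed the threshold when the variance was not moderated (adjusted p = 0.11) and when all 34760 probe sets were tested together (adjusted p = 0.107).

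Tgfb3, the ligand with roles in palate and lung development, was also lower in shRNA cells. Its probe set (10401673) read 7.84, 7.78 and 7.89 in shRNA cells and 8.09 and 8.14 in controls. The groups were separated by 0.20, more than the SD within either (0.053 in shRNA cells and 0.035 in controls). The log2 fold change was -0.27 (SE 0.048, limma adjusted p = 0.025), or 82.7% of the level in controls (interval 76.4 to 89.4%). This interval and that of Tgfb2 did not overlap, but the difference between the 2 genes was not tested. The Tgfb3 call rested on most of the arrays: it held without shRNA replicate 3 (adjusted p = 0.041) and was lost without shRNA replicate 1 (0.061), shRNA replicate 2 (0.080), control replicate 1 (0.10) or control replicate 2 (0.147), with log2 fold changes of -0.30 to -0.25.

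Tgfb1, which encodes the ligand most often linked to lung fibrosis, showed no such difference. Its probe set (10551185) read 9.39, 9.41 and 9.35 in shRNA cells and 9.33 and 9.34 in controls. The shRNA values lay above the controls by as little as 0.011. The log2 fold change of 0.04 (SE 0.041, limma adjusted p = 0.59) has a 95% confidence interval of -0.05 to 0.14, which leaves out a fall as large as that of Tgfb2 or Tgfb3.

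Among the receptors, Tgfbr3 passed the test. The betaglycan probe set (10532085) read 6.08, 6.17 and 6.23 in shRNA cells and 5.84 and 5.90 in controls, with no overlap and a gap of 0.19. The log2 fold change was 0.29 (SE 0.055, limma adjusted p = 0.030), a 1.22-fold rise. The call held without shRNA replicate 1 (adjusted p = 0.037) and was lost without shRNA replicate 2 (0.093), shRNA replicate 3 (0.065), control replicate 1 (0.155) or control replicate 2 (0.127), with log2 fold changes of 0.26 to 0.33.

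Tgfbr1, the kinase that phosphorylates the Smads, had 8.88, 9.12 and 9.07 in shRNA cells and 8.80 and 8.80 in controls (probe set 10504817). All shRNA values lay above both controls, but replicate 1 stood closer to the controls than to the other two shRNA arrays. The log2 fold change was 0.23 (SE 0.072, unadjusted p = 0.017, limma adjusted p = 0.118) and did not pass. It passed without shRNA replicate 1, at a log2 fold change of 0.30 (adjusted p = 0.040). Tgfbr2, the receptor that binds ligand first, had 7.97, 7.91 and 7.92 in shRNA cells and 7.94 and 7.93 in controls (probe set 10597518). Its groups overlapped, and the log2 fold change of -0.0018 (limma adjusted p = 0.99) has a 95% confidence interval of -0.10 to 0.10.

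None of the 3 Smad genes passed. Smad2 (10456764), which relays the signal, read 9.14, 9.10 and 9.13 in shRNA cells and 9.10 and 9.12 in controls. The groups overlapped, and the log2 fold change of 0.0089 has a 95% confidence interval of -0.09 to 0.10 (limma adjusted p = 0.93). Smad3 (10594404), the Smad2 relative that binds DNA directly, read 8.40, 8.50 and 8.49 in shRNA cells and 8.50 and 8.53 in controls, a log2 fold change of -0.05 (SE 0.048, limma adjusted p = 0.56). Its groups were separated by 0.0029 only. Smad7 (10456745), the feedback inhibitor, read 7.95, 8.06 and 8.05 in shRNA cells and 8.08 and 8.15 in controls. Its log2 fold change was -0.10 (SE 0.051, limma adjusted p = 0.33), with an interval of -0.22 to 0.03.

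**Figure D2:**
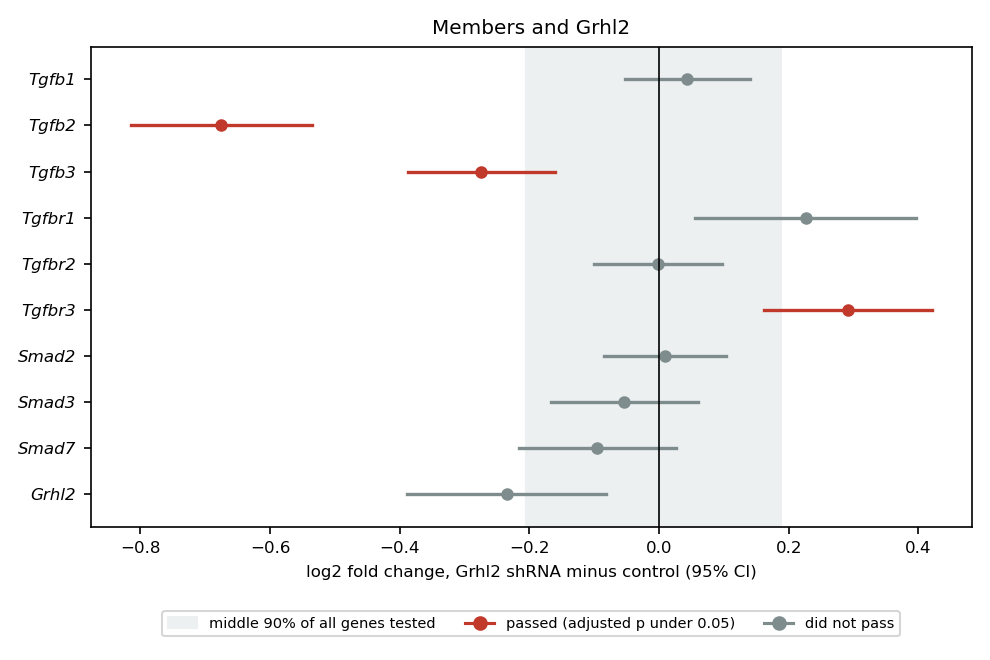
Log2 fold change (x axis, Grhl2 shRNA minus control) of the 9 genes and of Grhl2, with points for the limma estimate, bars for the 95% confidence interval and grey shading for the middle 90% of all genes tested, -0.21 to 0.19. Tgfb2 at -0.68 lies farthest from 0, Tgfb3 (-0.27) and Tgfbr3 (0.29) passed the threshold, and Tgfbr1 (0.23) lies outside the shading without passing.

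Other genes of the pathway were followed in 5 lists, none of which includes the 9 genes. Over the lists, 10 of 124 tested genes passed, or 8.06%, against 6.38% of all genes, and the lists' median log2 fold changes ran from -0.020 to -0.0070, against 0.0020 over all genes. The lists too were chosen with earlier results of these data known. All 10 calls missed the threshold when all probe sets were tested together (adjusted p = 0.135 to 0.224) and when the variance was not moderated (0.107 to 0.246), and with no filter 6 of them did: Itgb6, Dcn, Smad6, Nedd4l, Cdh2 and Bmp4 (0.0505 to 0.074). Itgb6 and Cdh2 do not reach the stricter filter, the 50th percentile, and have no value there, while the other 8 kept their calls. Array by array, the calls lost are given with each gene. Of 21 tested genes of ligand latency and activation, 2 were lower, 0 higher and 19 did not pass (median -0.0070). Both that fell activate latent ligand. Thbs1, the matrix glycoprotein thrombospondin 1, had 5.85, 5.72 and 5.99 in shRNA cells and 6.56 and 6.39 in controls, with no overlap. It fell by 0.62 (SE 0.086, limma adjusted p = 0.013). The other was Itgb6, the beta subunit of the epithelial integrin that releases TGF-beta 1 and TGF-beta 3, with 5.52, 5.49 and 5.69 in shRNA cells and 6.20 and 5.94 in controls. The partner chain gene Itgav, named after its value was seen, did not pass, at 0.03 (adjusted p = 0.75). The Thbs1 call was lost without control replicate 1 (adjusted p = 0.084) or 2 (0.057), and the Itgb6 call held without shRNA replicate 3 (0.036) but was lost without any of the other arrays (0.055 to 0.129).

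Of 22 receptor partners and decoys, 1 was higher, 0 lower and 21 did not pass (median -0.013). Dcn, the small proteoglycan decorin that binds TGF-beta in the matrix, had 7.70, 8.10 and 8.22 in shRNA cells and 7.36 and 7.25 in controls. All 3 shRNA values lay above the controls, with a wide spread among them (SD 0.274), and Dcn rose by 0.70 (SE 0.142, limma adjusted p = 0.036). Decorin is also a product of fibroblasts, and a contribution of such cells was not tested. The call held without shRNA replicate 1 (log2 fold change 0.86, adjusted p = 0.013) and was lost without any of the other arrays (0.066 to 0.180). Zfyve9, the anchor that brings Smad2 to the receptor, did not pass, at 0.17 (adjusted p = 0.057), but did with that stricter filter (0.019) and with a trended robust prior (0.024).

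Of 26 other Smads, co-repressors and turnover genes, 3 were lower, 0 higher and 23 did not pass (median -0.020). Smad9, a receptor-regulated Smad of the BMP branch, had 7.93, 7.82 and 7.88 in shRNA cells and 8.29 and 8.22 in controls, with groups well apart. It fell by 0.37 (SE 0.050, limma adjusted p = 0.012). Smad6, the inhibitory Smad that acts mainly on BMP signals, had 7.36, 7.28 and 7.34 in shRNA cells and 7.58 and 7.69 in controls, and fell by 0.30 (limma adjusted p = 0.024). Nedd4l, a ubiquitin ligase that removes activated Smad2 and Smad3, fell by 0.20 (limma adjusted p = 0.036). The common partner gene Smad4, named after its value was seen, did not pass, at 0.09 (adjusted p = 0.29). The Smad9 call was lost without control replicate 1 (adjusted p = 0.082) or 2 (0.065). The calls of Smad6 and Nedd4l were lost without any 1 of the 5 arrays, with adjusted p-values of 0.051 to 0.138 for Smad6 and 0.071 to 0.174 for Nedd4l.

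Of 31 tested genes that respond to TGF-beta in many cell types, 1 was higher, 2 lower and 28 did not pass (median -0.0070). Ccn2, connective tissue growth factor, had 9.89, 9.86 and 9.70 in shRNA cells and 10.26 and 10.48 in controls, with no overlap. It fell by 0.55 (SE 0.082, limma adjusted p = 0.016), and of the 5 arrays left out in turn, control replicate 2 was the one without which the call was lost (log2 fold change -0.45, adjusted p = 0.099). Cdh2, N-cadherin, had 5.50, 5.13 and 5.35 in shRNA cells and 6.06 and 5.80 in controls (log2 fold change -0.60, limma adjusted p = 0.032). Timp1, an inhibitor of matrix metalloproteinases, went the other way, with 7.81, 7.66 and 7.75 in shRNA cells and 7.20 and 7.30 in controls. It rose by 0.49 (SE 0.059, limma adjusted p = 0.0086). The Timp1 call was lost without control replicate 1 (adjusted p = 0.064) or 2 (0.053), and the Cdh2 call held without shRNA replicate 1 (0.041) but was lost without any of the other arrays (0.061 to 0.165). Snai2, Lox and Postn of this list were below the filter.

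Of 24 tested genes of the BMP and activin branch, 1 was lower, 0 higher and 23 did not pass (median -0.017). Bmp4, a ligand of lung branching, had 10.05, 9.97 and 9.98 in shRNA cells and 10.24 and 10.35 in controls, with no overlap. It fell by 0.29 (SE 0.052, limma adjusted p = 0.025), and the call held without shRNA replicate 1 (adjusted p = 0.045) but was lost without any of the other arrays (0.064 to 0.146). Bmp2, a close relative, had 6.19, 6.21 and 6.30 in shRNA cells and 6.33 and 6.66 in controls, and did not pass (log2 fold change -0.26, adjusted p = 0.148). Its value turned on the controls, at -0.43 (adjusted p = 0.058) without control replicate 1 and -0.10 (0.50) without control replicate 2.

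**Figure D3:**
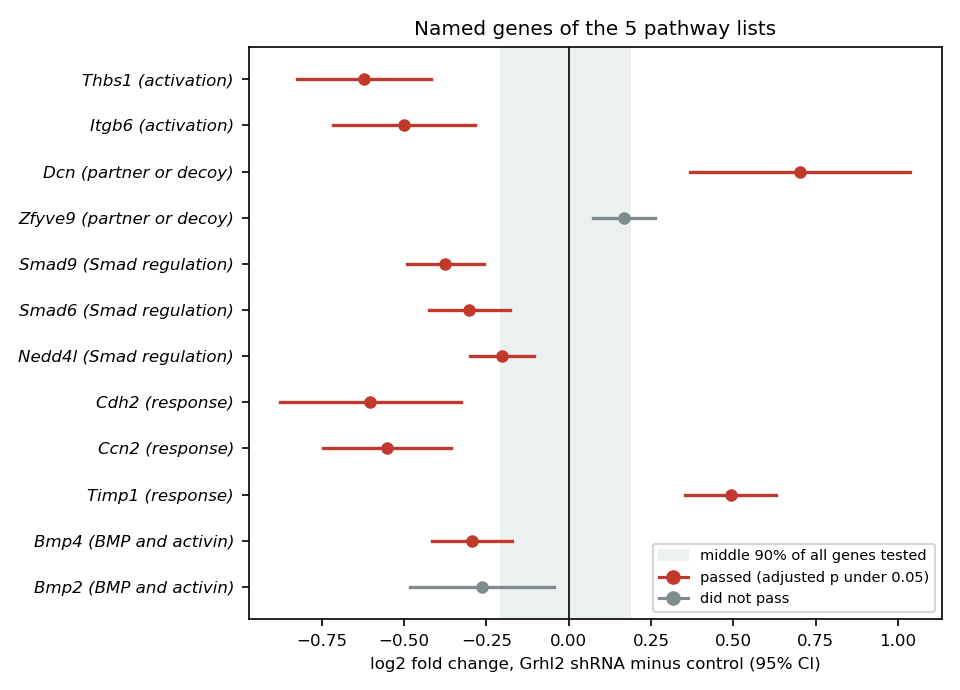
Log2 fold change (x axis, Grhl2 shRNA minus control) of the 12 genes named by rule from the 5 pathway lists, with points for the limma estimate, bars for the 95% confidence interval and grey shading for the middle 90% of all genes. Dcn and Timp1 lie to the right at 0.70 and 0.49, while Thbs1, Itgb6, Cdh2 and Ccn2 lie to the left at -0.50 or below.

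The genes whose profile over the 5 arrays was most like that of each called member were listed by the root mean square difference between profiles after each was centred on its own mean. For Tgfb2 these were Aldoart1, Kirrel3, a cell adhesion protein of the immunoglobulin superfamily, and Pxdn, a peroxidase of basement membranes, at 0.048, 0.062 and 0.064. Aldoart1 is a retrogene of Aldoa, so its probe set may also take up signal from that gene. For Tgfb3 they were Zscan21, S100a11 and Uqcrh, at 0.014, 0.015 and 0.018. For Tgfbr3 they were Hhex, Gbp3 and Creb3l1, at 0.016, 0.020 and 0.025. With 5 arrays in 2 groups these profiles mostly reflect the size of the difference between groups, and no test was made of them.

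**Figure D4:**
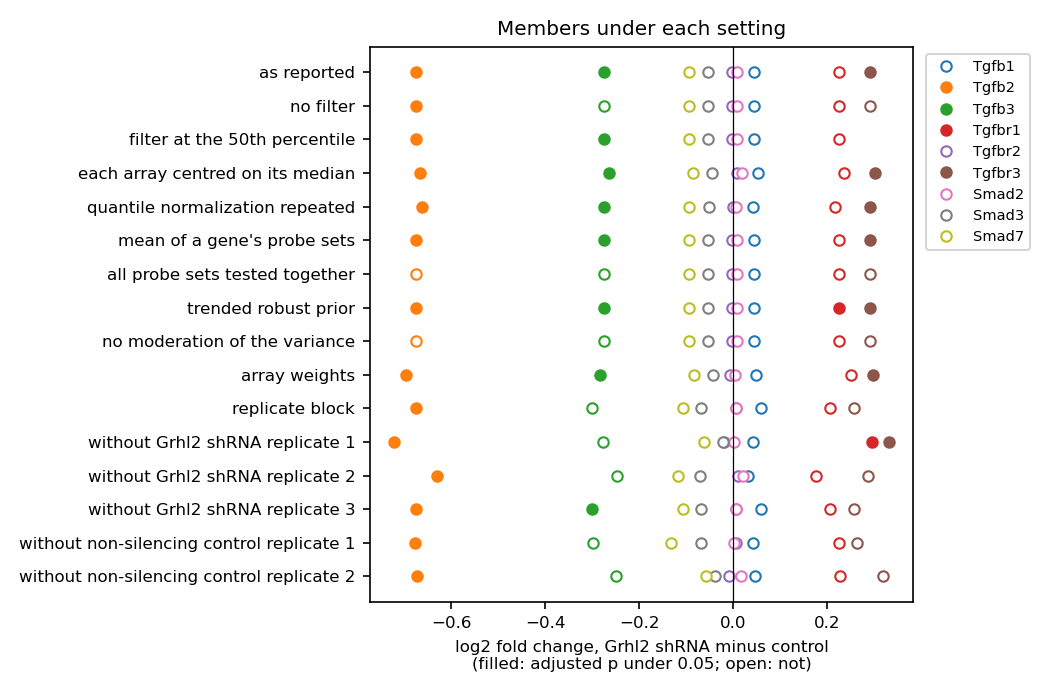
Log2 fold change (x axis, Grhl2 shRNA minus control) of the 9 genes as reported and under each of the 15 alternatives (y axis), with filled points where the adjusted p was under 0.05 and open points where it was not. Tgfb2 stays between -0.72 and -0.63, while the points of Tgfb3 and Tgfbr3 turn open under most alternatives with little change in position; Tgfbr3 is below the stricter filter and has no point there.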

How the data were processed

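Total RNA (300 ng per sample) from 5 MLE-15 cultures was labelled and hybridised to whole-transcript Affymetrix arrays, 1 sample per array. The authors deposited 1 table of log2 values, and per the submitters' processing notes RMA and Affymetrix Expression Console produced them. RMA normalizes quantiles between arrays, so a shift shared by most genes would not show. For versions and probe set annotation the sources used here give nothing, and the log base was taken from RMA and the range of values.

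Of 34760 probe sets, 21640 had 1 gene symbol in the platform annotation, 1321 several and 11799 none listed. Symbols were matched by Entrez ID to RefSeq (21553 matched, 0 changed). Probe sets with a mean below the 25th percentile (4.22) were left out, and the brightest stood for each gene, giving 14979 genes. Groups were compared with limma 3.58.1 (lmFit, eBayes, R 4.3.3, two-sided), with Benjamini-Hochberg adjustment over all genes and a threshold of 0.05. There are 3 residual degrees of freedom per gene, so the number of arrays limits the precision. On simulated arrays (14979 genes, 200 changed, 10 runs) the test recovered 17.9%, 88.2% and 99.5% of genes with log2 changes of 0.25, 0.5 and 1. Fewer genes changed there than the 956 called in these data, which makes the adjusted threshold stricter. The simulated shares therefore do not give the recovery in these data.

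From each pathway list at most 6 called genes were named, and with fewer than 2 calls the 2 genes farthest from 0. Each called member's 3 nearest profiles were named too, leaving out predicted, RIKEN and accession-named genes. The members and lists were chosen with earlier results of these data known. Same-numbered arrays of the 2 groups deviated with r of 0.057 and 0.019 across genes, which does not pair them. Alternatives were the filter, normalization, probe set choice, variance prior, array weights, the replicate block and each array left out.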

Additional observations from a re-analysis of the deposited data

How the results depend on the processing

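Direction held for 8 of the 9 genes under every alternative run. The exception was Tgfbr2, whose log2 fold change near 0 turned positive with each array centred on its median (0.0074), with quantile normalization repeated (1.52e-07), with the replicate number as a block (0.0053), and without shRNA replicate 2, shRNA replicate 3 or control replicate 1, over a range of -0.020 to 0.0097 with each array left out. Tgfb2 kept its call in 13 of 15 alternatives, Tgfb3 in 7 of 15 and Tgfbr3 in 6 of 14. The calls lost with an array left out are given above with each gene. In the other losses the log2 fold change stayed at -0.68 (Tgfb2), -0.27 (Tgfb3) or 0.29 (Tgfbr3), except with the replicate block. Those other losses were as follows. With no filter, Tgfb3 (adjusted p = 0.053) and Tgfbr3 (0.062) missed the threshold. With all probe sets tested together, Tgfb2 (0.107), Tgfb3 (0.19) and Tgfbr3 (0.203) missed it, as they did when the variance was not moderated (0.11, 0.144 and 0.173). With the replicate block, Tgfb3 was at -0.30 (adjusted p = 0.074) and Tgfbr3 at 0.26 (0.080), and Tgfb2 passed. Replicate number 3 has an shRNA array and no control. The block therefore gave the same log2 fold changes as leaving out shRNA replicate 3, and the block and that fit are not separate checks of effect size. Tgfbr1 passed with a trended robust prior (0.23, adjusted p = 0.028). Tgfbr3 has no value at the 50th percentile filter, which it does not reach. With each array left out, log2 fold changes ran from -0.30 to -0.25 for Tgfb3, 0.18 to 0.30 for Tgfbr1 and 0.26 to 0.33 for Tgfbr3, and a control left alone was assumed to vary like the shRNA group.

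The 9 genes held 1 call with no filter, 0 with all probe sets together, 0 with no moderation, 1 with the replicate block and 1 to 3 with each array left out. All genes held 418 calls with no filter, 1708 with the filter at the 50th percentile, 2034 with a trended robust prior, 172 with the replicate block, 9 without moderation and 67 to 493 with each array left out. With all probe sets tested together limma called 0, and 4515 had an unadjusted p under 0.05. Of the 10 called genes of the pathway lists, 7 lost their call with the replicate block (Ccn2, Timp1, Dcn, Smad9, Smad6, Nedd4l and Bmp4, adjusted p = 0.0505 to 0.110), and Thbs1, Itgb6 and Cdh2 kept it. The list medians moved by less than the spread between replicates, except for latency and activation, at -0.052 to -0.0036 with each array left out. The replicate block in effect leaves out shRNA replicate 3, as stated above. Other causes of these shifts were not tested.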

Other observations

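Among the 124 tested genes of the pathway lists, 8 had a limma adjusted p between 0.05 and 0.1, or 6.45%, against 5.98% of all genes, so these are close to the background share and did not pass. Inhba, which encodes the activin A chain, had a log2 fold change of -0.25 (SE 0.056, adjusted p = 0.0503). Thbs2, thrombospondin 2, was at 0.26 (adjusted p = 0.055), opposite in sign to its relative Thbs1 at -0.62. The Thbs2 signal was low, with means of 4.85 in shRNA cells and 4.59 in controls, near the filter of 4.22. Cdkn2b and Myc, a cell cycle inhibitor and a growth factor-responsive transcription factor that TGF-beta is known to induce and repress in epithelial cells, were at -0.16 (adjusted p = 0.061) and 0.20 (adjusted p = 0.066). Ccn1, the matrix protein related to Ccn2, was at -0.31 (adjusted p = 0.079), and Klf10, an early TGF-beta response factor, at 0.16 (adjusted p = 0.087). Mmp14, a membrane metalloproteinase, was at -0.15 (adjusted p = 0.087).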
